A study of Mus musculus with 15 samples.

Results

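The comparison described here set 3 libraries of SOX9-mEGFP_budding organoids against 3 libraries of Halo-NLS organoids, 6 of the 15 libraries of the series, over all genes. The members were chosen by their labels, with earlier results of these data known. Both are stable lines of mouse small intestinal organoids, made by lentiviral transduction of crypt-derived cultures and selected with puromycin. The SOX9-mEGFP line was of wild-type background. For the Halo-NLS organoids sequenced, the background is not stated. In the authors' imaging, Halo-NLS cells were classed by LGR5-DTR-GFP, a fluorescent stem cell marker from LGR5::DTR-GFP mice. Whether the sequenced Halo-NLS organoids carried that marker is not stated, and its part in the Lgr5 counts was not tested. Halo-NLS organoids carried a V5-tagged HaloTag with a nuclear localization signal, followed by an IRES and the puromycin resistance gene, and served as the control. SOX9-mEGFP_budding organoids carried mouse SOX9 joined to mEGFP and a V5 tag in the same vector design. Both transgenes were driven by the L30 promoter, a weak promoter that is active in all cell types, so that every organoid cell and not only the crypt cells could express them. Each condition came from 1 stable line, and the 3 libraries of a condition are biological replicates of that line, so that differences between the lines other than the transgene cannot be told apart from those of SOX9. In the remaining libraries of the series, SOX9 carried a HaloTag or the organoids had turned into spheroids, and they entered the fit so that the spread was estimated over all 15.

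The epithelium of the small intestine is renewed by stem cells at the crypt base, whose progeny become absorptive enterocytes or secretory Paneth, goblet, enteroendocrine and tuft cells. SOX9 is a transcription factor of the HMG box family that binds DNA in the minor groove, is made in the crypt under the control of Wnt signals, and is needed for Paneth cells to form. In organoids that keep buds, the bud tips hold stem and Paneth cells and the body holds the differentiated cells.

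Each of the 6 libraries had between 29136361 and 38569142 counts on genes. Values are given as normalized counts, that is, counts scaled by effective library size (TMM) to the mean of the 15 libraries. The epithelial markers Epcam, Cdh1, Krt8, Krt18, Krt19, Vil1, Cdx2, Cdh17, Lgals4 and Phgr1 were all present, summing to between 9260 and 14300 CPM (counts scaled to a common library total), and 0 of the 10 passed the test in either direction. Markers of other tissues summed to far less. The 14 mesenchymal markers summed to 8.81 to 9.47 CPM in Halo-NLS and 3.20 to 7.41 in SOX9-mEGFP_budding, the 14 immune markers to 2.97 to 6.61 and 5.07 to 6.73, and the 10 endothelial markers to 12.1 to 19.4 and 8.88 to 16.3. None of these markers was at 0 in all 6 libraries, but Dcn, Thy1, Twist1, Cd8a and Cd4 had at most 3 counts in each. Halo-NLS replicate 3 had 17 counts of Ptprc, 34 of Cd3e and 28 of Flt1, against at most 6 in any other of the 6. Itgam and Lyve1 were lowest in that library (22 and 187 counts). It also had the most genes detected (40375, against 24214 to 34646). The 11 neural and glial markers summed to between 152 and 259 in Halo-NLS and between 170 and 246 in SOX9-mEGFP_budding, most of it from Erbb3 and Ret. Female mice were the source of the crypts. Xist, the RNA that coats the inactive X chromosome, had 2, 1 and 4 counts in Halo-NLS and 2, 0 and 8 in SOX9-mEGFP_budding, and Ddx3y, Uty, Kdm5d and Eif2s3y of the Y chromosome had 0 counts in the 6 libraries. In SOX9-Halo_budding, Xist had 12033, 1182 and 14811 counts.

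The control libraries stood apart from each other. Halo-NLS replicates 2 and 3 had fewer counts on AT-rich genes and on long genes than the 4 other libraries. For this check the genes were split into 5 bins of equal size. In the bin with the lowest GC content, the median log2 deviation from the mean of the 15 libraries was 0.13 in Halo-NLS replicate 1, -1.03 in replicate 2 and -0.85 in replicate 3, against 0.06, 0.13 and 0.35 in SOX9-mEGFP_budding. In the bin with the longest transcripts it was -0.15, -0.51 and -0.83 against 0.06, 0.04 and 0.22. Over genes, the log2 counts of Halo-NLS replicate 1 correlated at r = 0.9669 and 0.9563 with Halo-NLS replicates 2 and 3. With SOX9-mEGFP_budding replicates 1, 2 and 3 they correlated at r = 0.9685, 0.9700 and 0.9527. The fitted differences also ran with GC content and transcript length. The median log2 fold change was 0.67 in the bin lowest in GC and -0.44 in the highest, and -0.21 in the bin of the shortest transcripts and 0.55 in that of the longest. The part of base composition and length in single genes was not tested, but the counts of DEGs, the gene lists, the chromosomes and most of the genes named below were also computed with the GC and length trend of every library removed, and with Halo-NLS replicate 1 as the lone control.

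**Figure D1:**
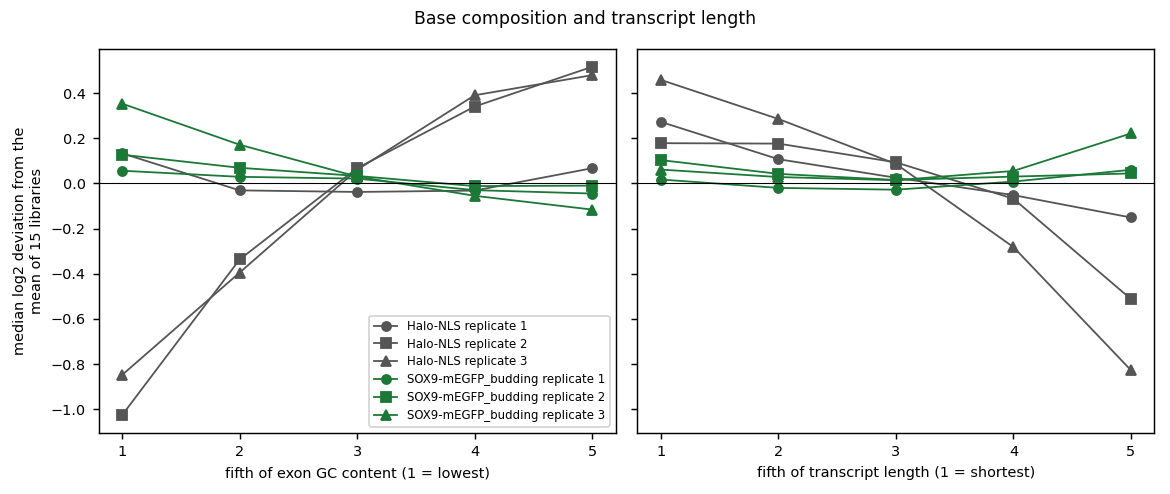
Median log2 deviation from the mean of the 15 libraries (vertical axis) for genes in 5 bins of equal size by GC content (left) and transcript length (right), with 1 line per library in dark gray for Halo-NLS and green for SOX9-mEGFP_budding. Halo-NLS replicates 2 and 3 reach -1.03 and -0.85 in the bin lowest in GC, where the 4 other libraries lie between 0.06 and 0.35.

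Sox9 transcripts were more abundant in the line that carried the SOX9 transgene. Sox9 (ENSMUSG00000000567, chr11:112673009-112678586, plus strand, GRCm39) had normalized counts of 515, 769 and 306 in the Halo-NLS libraries and of 11370, 11090 and 6487 in SOX9-mEGFP_budding. The conditions did not overlap, and the lowest SOX9-mEGFP_budding library was well above the highest control. The log2 fold change was 4.19 ± 0.63 (SE), with an adjusted p of 0.00095 in edgeR's quasi-likelihood test. With the GC and length trends removed it was 4.07, and with Halo-NLS replicate 1 alone it was 4.22 and no longer passed the threshold. In SOX9-Halo_budding, the other line of budding shape, Sox9 reached 1336, 10540 and 6838, and it did not pass the test between both SOX9 lines (log2 fold change of SOX9-Halo_budding over SOX9-mEGFP_budding -0.63 ± 0.55). Counts per gene do not separate reads of the transgene from those of the endogenous gene.

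SOX9-mEGFP_budding and Halo-NLS organoids differed in 484 of 17560 genes tested. Of these, 350 were higher in SOX9-mEGFP_budding (1.99% of the genes tested) and 134 were lower (0.763%). A gene was called a differentially expressed gene (DEG) if its adjusted p did not exceed 0.01, the condition means differed by 2-fold or more, and its normalized counts averaged 10 or more over the 15 libraries. At an unadjusted p under 0.05, 3340 genes were higher and 2707 lower. In each of the 484 DEGs, the values of both conditions did not overlap, which held for 32.5% of all genes tested. The median size of the log2 fold change was 2.17 for the rises and 2.01 for the falls. A log2 fold change of at least 4 in size was reached by 44 of the genes that rose (12.6%) and by 33 of those that fell (24.6%). The counts depended on the control. With GC and length trends removed, 342 genes were higher and 281 lower, of which 255 and 117 were among the DEGs above. With Halo-NLS replicate 1 as the lone control, 46 and 40 genes passed, and 45 and 39 of them were among the DEGs above.

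**Figure D2:**
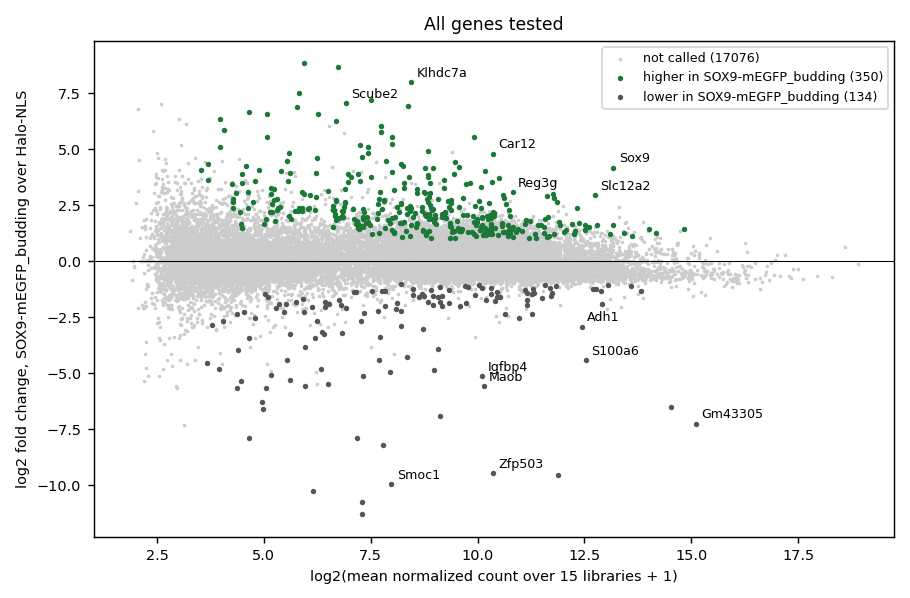
Log2 fold change of SOX9-mEGFP_budding over Halo-NLS (vertical axis) against the log2 mean normalized count over the 15 libraries (horizontal axis) for the 17560 genes tested. The 350 genes called higher are green, the 134 called lower dark gray, and Sox9 and 12 other named genes are labelled.

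The 15 largest rises among abundant DEGs were led by genes that were near 0 in the control. Klhdc7a, which encodes a kelch domain protein, had 1 count in each Halo-NLS library and normalized counts of 490, 371 and 170 in SOX9-mEGFP_budding. The ratio of the summed counts was 258 (95% counting interval 88.2 to 1256), and the fitted log2 fold change was 7.98 ± 0.72 (adjusted p = 1.3e-05). Scube2, a secreted protein that helps to release Hedgehog ligands from cells, went from 5.23, 2.29 and 1.26 to 440, 414 and 351. Its neighbour Nrip3, 14399 bases away, rose as well (log2 fold change 1.96). In both genes every SOX9-mEGFP_budding library was above every control. The lead genes also held noncoding RNAs, namely Gm10384, ENSMUSG00000128875 and Gm49980, with log2 fold changes of 7.18, 6.94 and 6.02.

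Several of the other large rises encode enzymes and membrane proteins. Car12, a carbonic anhydrase of the cell surface, had 36.6, 56.2 and 41.5 normalized counts in Halo-NLS and 861, 1016 and 1902 in SOX9-mEGFP_budding (log2 fold change 4.81 ± 0.51, adjusted p = 4.5e-05). Plod2, a lysyl hydroxylase that modifies collagen, had 86.3, 32.1 and 36.5 against 877, 609 and 1036 (4.03 ± 0.36, adjusted p = 1.3e-05). Rcn1, a calcium-binding protein of the endoplasmic reticulum, had 45.7, 28.7 and 33.9 against 680, 724 and 950. In these genes the SOX9-mEGFP_budding libraries were at least several times above the highest control library. Padi2, which converts arginine in proteins to citrulline, had 6.54, 3.44 and 11.3 against 228, 234 and 147. Rassf4, a Ras association domain protein, had 20.9, 12.6 and 23.9 against 564, 697 and 900. The group also held Zdhhc15, a palmitoyltransferase (log2 fold change 6.28), Mtus2, a microtubule-binding protein (5.75), Sh3tc2 (5.52) and Sox9 itself. Of the 15 rises, 10 were called under each of 15 alternatives, and Sox9, Klhdc7a, Zdhhc15, Mtus2 and Car12 under 14.

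The largest falls went close to silence in SOX9-mEGFP_budding. A pair of long noncoding RNAs of chromosome 12 had no counts there. 1700030C10Rik (ENSMUSG00000099759) had normalized counts of 206, 313 and 407 in Halo-NLS and was at least 102-fold lower in SOX9-mEGFP_budding, taking the 3 counts that a count of 0 allows in each library. Ppp1r36dn had 286, 207 and 150 and was at least 70.6-fold lower. Smoc1, a secreted protein that restrains BMP signals, had 832, 1286 and 1216 against 2.43, 1.04 and 0, a ratio of summed counts of 1147 (95% counting interval 392 to 5564). Zfp503, a zinc finger repressor of transcription, had 1592, 1745 and 1643 against 1.22, 2.08 and 3.12 (log2 fold change -9.45 ± 0.42, adjusted p = 1.5e-08). The control libraries were close to each other in both genes, and the SOX9-mEGFP_budding libraries were near 0.

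Other falls were smaller. Gm43305, a noncoding RNA, fell from 26630, 33930 and 20390 to 164, 186 and 182 (log2 fold change -7.25 ± 0.46, adjusted p = 5.2e-07). Igfbp4, a secreted protein that binds insulin-like growth factors and is found in crypt stem cells, had 1611, 2022 and 2940 against 47.4, 43.6 and 95.0 (-5.13 ± 0.44, adjusted p = 8.2e-06). Maob, the mitochondrial monoamine oxidase B, had 5229, 4675 and 2010 against 160, 90.3 and 3.89. Its SOX9-mEGFP_budding libraries spread widely but stayed below each control. Arhgap9, a GTPase-activating protein, had 387, 539 and 544 against 3.64, 1.04 and 1.56. Arhgap9 overlaps Gli1 and Gm67991, and reads over exons of more than 1 gene were left out of the counts as ambiguous. Fam111a, a protease that takes part in DNA replication, had 482, 142 and 212 against 1.22, 0 and 4.67. H19, the imprinted noncoding RNA, had 463, 754 and 28.9 against 17.0, 2.08 and 9.34, and its adjusted p of 0.0091 was close to the threshold. The list closed with Pcp4l1 (log2 fold change -5.56), Cnpy1 (-5.11) and the noncoding RNAs Gm42047 (-9.53), ENSMUSG00000134320 (-8.21) and ENSMUSG00000127251 (-6.50). Of the 15 falls, 13 were called under each of the 15 alternatives, all but Maob and H19, and 7 were long noncoding RNAs against 3 of the 15 rises.

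**Figure D3:**
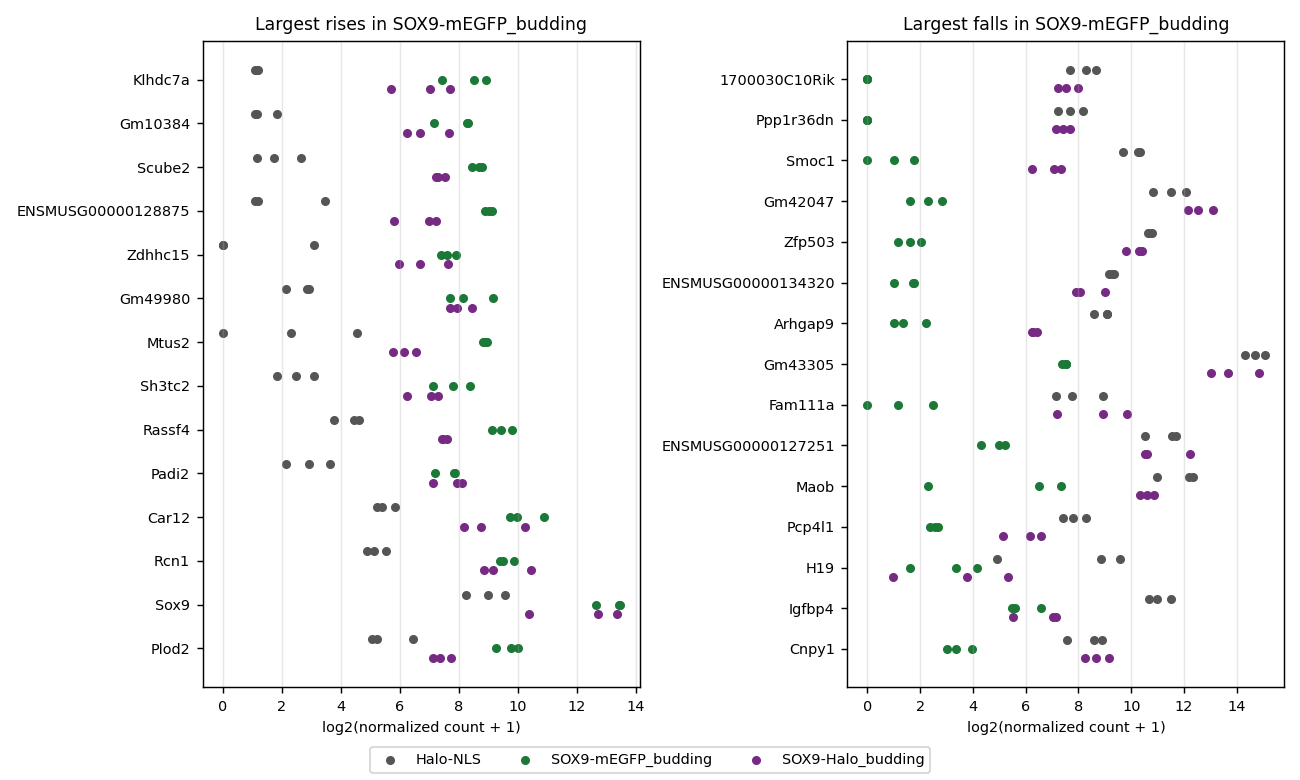
Log2(normalized count + 1) of 14 of the 15 largest rises (left) and the 15 largest falls (right), with 1 point per library in dark gray for Halo-NLS, green for SOX9-mEGFP_budding and purple for SOX9-Halo_budding. In each gene the gray and green points are apart, and for Zfp503, Gm42047 and Cnpy1 the purple points lie with the gray ones.

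The values of the other budding SOX9 line are set beside these, with the caution that each comparison shares libraries with the first. Between SOX9-Halo_budding and SOX9-mEGFP_budding, 80 genes differed (0.456% of the genes tested), 51 higher in SOX9-Halo_budding and 29 higher in SOX9-mEGFP_budding. Among the large falls, Zfp503 had 890, 1263 and 1355 in SOX9-Halo_budding (log2 fold change over SOX9-mEGFP_budding 8.94, adjusted p = 2.2e-08 in edgeR's test). Gm42047 had 5918, 4530 and 8814 (10.63), Cnpy1 572, 305 and 404 (5.39), and Gm43305 8252, 13110 and 29590 (6.58). Smoc1 lay between the lines with 74.8, 133 and 162, above SOX9-mEGFP_budding (6.78) and below Halo-NLS (-3.17, adjusted p = 0.00023). Igfbp4 was low in both SOX9 lines, with 45.4, 129 and 140 in SOX9-Halo_budding, and did not pass the test between them (0.74, adjusted p = 0.71). Among the large rises, Plod2 had 213, 138 and 163 in SOX9-Halo_budding, less than in SOX9-mEGFP_budding (-2.29, adjusted p = 0.0019). Padi2, with 139, 246 and 273, and Rcn1, with 574, 466 and 1397, did not pass the test between the lines (0.11 and 0.05). Zfp503, Gm42047, Cnpy1 and Gm43305 were thus near silence or strongly reduced in SOX9-mEGFP_budding but not in the line that carried SOX9 with the HaloTag.

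The 250 bases before the start of the canonical transcript are shown for Klhdc7a, the largest of the rises with a mean of at least 100, and Ppp1r36dn, a fall to no counts, since SOX proteins bind DNA with the core ACAAT. The sequences were read from GRCm39 with the starts of the GENCODE M39 annotation, run 5′ to 3′ on the strand of the gene, and have each ACAAT or its reverse complement ATTGT in capitals. Klhdc7a lies on the minus strand at chr4:139695338-139695587 and Ppp1r36dn on the plus strand at chr12:76491029-76491278.
Klhdc7a: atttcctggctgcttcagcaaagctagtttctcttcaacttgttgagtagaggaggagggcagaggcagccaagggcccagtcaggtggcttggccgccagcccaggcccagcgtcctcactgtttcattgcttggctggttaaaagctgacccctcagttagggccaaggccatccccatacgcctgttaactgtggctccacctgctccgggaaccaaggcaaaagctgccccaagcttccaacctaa
Ppp1r36dn: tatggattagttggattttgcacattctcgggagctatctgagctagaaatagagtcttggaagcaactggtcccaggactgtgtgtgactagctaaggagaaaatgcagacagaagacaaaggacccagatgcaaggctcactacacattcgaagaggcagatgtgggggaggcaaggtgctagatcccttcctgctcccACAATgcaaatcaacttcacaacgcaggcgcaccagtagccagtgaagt
The window of Klhdc7a held no ACAAT on either strand, and that of Ppp1r36dn held 1. Over windows of this length, ACAAT on either strand was present in 24.3% of the genes that rose and 30.6% of those that fell, against 22.6% of the 17551 genes tested that had a window. The median number of CpG dinucleotides per window was 9 in the genes that rose, 7 in those that fell and 11 over all.

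Among 25 crypt base stem cell genes, 4 rose (16%) and 2 fell (8%), with a median log2 fold change of 0.89 against 0.03 over all genes tested. Of all genes tested, 1.99% rose and 0.763% fell, and every list below is to be read beside these shares. Lists with a single rise, such as the enteroendocrine list (2.7%), can be close to them. With GC and length trends removed the median was 0.46 against -0.09. Here and in the lists that follow, fewer cells of a type and less RNA per cell cannot be told apart in bulk libraries. The rises were those of Gkn3, a secreted gastrokine (log2 fold change 3.03), Slc12a2, the sodium-potassium-chloride cotransporter (2.96), Cd44, the hyaluronan receptor (2.64), and Prom1, a membrane protein of stem cells (1.11). Slc12a2 had 1979, 523 and 1081 normalized counts in Halo-NLS and 3698, 5523 and 18640 in SOX9-mEGFP_budding. Cd44 had 226, 186 and 184 against 852, 862 and 1991. In both genes, SOX9-mEGFP_budding replicate 3 was far above the other libraries of its condition. With the GC and length trends removed, the adjusted p was 0.010 for Slc12a2, 0.011 for Cd44 and 0.053 for Prom1, each above the threshold, and Gkn3 was the 1 rise that stayed called (0.0037). The falls were Igfbp4 and Tert, the catalytic subunit of telomerase, which had 518, 700 and 320 against 148, 139 and 97.3 (adjusted p = 0.0012). Slc6a19, a neutral amino acid transporter that lies 27375 bases from Tert, fell as well (-1.93). It overlaps the antisense RNA Slc6a19os, and since strand was not used, reads over exons of both were left out as ambiguous.

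The best known stem cell markers did not pass. Chosen after their values were seen, Lgr5, the R-spondin receptor of crypt stem cells, had 379, 372 and 411 in Halo-NLS and 449, 496 and 2411 in SOX9-mEGFP_budding (1.53 ± 0.53, adjusted p = 0.064), and Olfm4 had 920, 484 and 3726 against 170, 692 and 15540 (1.68 ± 1.21, adjusted p = 0.33). For both, the SOX9-mEGFP_budding mean rested on replicate 3. Ascl2, a transcription factor of stem cells, had 208, 298 and 861 against 142, 181 and 598. The abundant stem cell genes Smoc2, Lrig1 and Kcnq1 had log2 fold changes of 0.34, -0.15 and -0.04.

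Of the Wnt pathway, 2 of 24 targets and feedback genes rose (8.33%, Cd44 and Mmp7) and none fell, with a median of 0.40. Of 24 ligands and receptors, 3 rose (12.5%) and none fell (median 0.56). Of all genes tested, 1.99% rose. With the GC and length trends removed, 0 of the targets and feedback genes rose (median 0.26). On that scale 4 of the ligands and receptors rose (median 0.57), beside 342 of 17560 genes. Lgr4, a receptor for R-spondins, had 1676, 796 and 607 against 2857, 3184 and 3841 (1.68 ± 0.30, adjusted p = 0.0038), and Fzd7, a Frizzled receptor, 524, 632 and 586 against 1356, 1055 and 1351 (1.11 ± 0.20, adjusted p = 0.0040). Both receptors were higher in each SOX9-mEGFP_budding library than in any control. Fzd3 rose from 1.31, 0 and 1.26 to 8.50, 10.4 and 6.23, at the edge of detection, and with trends removed its adjusted p was 0.090. The targets Myc, Ephb2 and Ccnd1 had log2 fold changes of 0.44, -0.51 and 0.05 and did not pass. Of the 7 SOX genes tested, Sox6 rose besides Sox9 (1.66 ± 0.33), and with trends removed its adjusted p was 0.015. Sox4, an SRY-box factor of progenitors, had 1098, 702 and 1639 against 1969, 2716 and 7890 and missed the threshold (adjusted p = 0.012). Of 5 cartilage genes that SOX9 is known to bind, none passed (median 0.03).

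The Paneth, goblet and tuft cell lists had medians above that of all genes, with few members called. Rises made up 7.41%, 8% and 4.76% of their tested members, beside 1.99% of all genes. Of 27 Paneth cell genes, 2 rose and none fell (median 0.67). Habp2, a secreted protease, had 396, 572 and 705 against 1260, 1494 and 2385, and Mmp7, the protease that activates defensins, 571, 458 and 371 against 1225, 820 and 1230. The adjusted p of Mmp7 was 0.012 with trends removed. In SOX9-Halo_budding, Mmp7 had 183, 237 and 131, below SOX9-mEGFP_budding (log2 fold change -2.57), and Habp2 did not pass the test between the SOX9 lines. Lyz1, the lysozyme of Paneth cells, did not pass (-0.34), and Itln1, a lectin, had 19490, 16920 and 16650 against 7753, 9431 and 9580 (-0.99, adjusted p = 0.037). Of 25 goblet cell genes, 2 rose and none fell (median 0.74). Ccl9, a chemokine, had 209, 153 and 205 against 714, 1085 and 1221 (2.41 ± 0.30, adjusted p = 0.00019), while Sytl2, a regulator of vesicle transport, was lost with trends removed (adjusted p = 0.016). Tff3 and Fcgbp, abundant products of goblet cells, had log2 fold changes of 0.35 and 0.44 with overlapping libraries. Of 37 enteroendocrine genes, 1 rose (median -0.11), Pyy, the peptide YY hormone, with 13.1, 10.3 and 10.1 against 138, 92.4 and 56.8. Chga and Chgb, the granins of these cells, had -0.76 and -0.14. Pyy had 11.1, 19.5 and 4.88 in SOX9-Halo_budding. Of 21 tuft cell genes, 1 rose (median 0.77), Cd24a, which other crypt cells carry too, with 6341, 4880 and 5543 against 14910, 13990 and 16870. Of 18 secretory lineage factors, Creb3l4 alone rose (1.41), and Atoh1, the factor that sets the secretory fate, chosen after its values were seen, had 225, 251 and 205 against 618, 554 and 564 (1.35 ± 0.29), just short of the threshold.

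Lists of absorptive function had medians below that of all genes, again with few members called. A single fall was 4.55% of the brush-border list and 4.17% of the sugar and peptide uptake list, beside 0.763% of all genes. Of 22 brush-border enzymes, 1 fell (median -0.37), Cndp2, a dipeptidase of the cytosol, with 12080, 15580 and 16090 against 6922, 7294 and 3463. Alpi, intestinal alkaline phosphatase, had 25210, 34390 and 17880 against 8934, 6269 and 2622 and missed the threshold (-2.12 ± 0.47, adjusted p = 0.012). Mgam, maltase-glucoamylase, was on the other side with 13010, 9459 and 1596 against 35060, 25980 and 20210 (1.76, adjusted p = 0.033). In both genes the conditions did not overlap. Of 24 sugar and peptide uptake genes, Slc6a19 fell (median -0.57). Of 32 lipid absorption genes, none passed in either direction (median -0.61), and the conditions did not overlap in 11 lower and 1 higher member, beside 15.4% and 17.2% of all genes. Of 26 genes of microvillus structure, Espn, an actin bundler, fell from 8328, 9349 and 7868 to 2071, 1963 and 1050 (-2.33 ± 0.36, adjusted p = 0.0011), and 1 member rose. Vil1, the villin of the same bundles, had a log2 fold change of -0.56 and did not pass.

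Of 86 genes of xenobiotic metabolism, 4 fell (4.65%, beside 0.763% of all genes) and none rose (median -0.32). Adh1, the alcohol dehydrogenase that also oxidizes retinol, had 19420, 20920 and 11260 against 3965, 2424 and 491 (-2.91 ± 0.59, adjusted p = 0.0075). Its relative Adh7, 26814 bases away on chromosome 3, had 275, 255 and 172 against 55.9, 50.9 and 7.01. Gstp2, a glutathione transferase, fell from 14380, 17370 and 16370 to 4368, 4602 and 3932 (-1.90 ± 0.17, adjusted p = 1.1e-05), and Gstm2 from 5758, 6244 and 3859 to 2382, 1836 and 890. Replicates of Gstp2 lay close together in both conditions, whereas those of Adh1 spread widely in SOX9-mEGFP_budding. Glutathione transferase genes have near-identical relatives, and the counts hold unique alignments only. The 4 falls stayed called with trends removed. Over 14 alternatives, the threshold on the adjusted p was passed under 14 by Gstp2, 10 by Adh7, and 8 each by Adh1 and Gstm2. With Halo-NLS replicate 1 as the lone control, the log2 fold changes of Adh1, Adh7, Gstp2 and Gstm2 were -3.07, -2.88, -1.75 and -1.76.

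The 21 factors of intestinal identity had a median of 0.09 and none passed in either direction. Hnf4a, Cdx1 and Cdx2 had log2 fold changes of -0.40, -0.86 and -0.57. In Cdx1 and Cdx2 the libraries did not overlap, with 9656, 13180 and 14020 against 5587, 7409 and 7244 for Cdx1. Of 69 respiratory chain genes and 79 cytoplasmic ribosomal protein genes, none was called, yet they leaned to one side. Their medians were -0.50 and -0.61, and the libraries did not overlap in 38 and 51 lower members and in 0 higher ones, beside 15.4% of all genes lower. With trends removed the medians were -0.58 and -0.62. Scaling by library sizes alone moved the median of all genes from 0.03 to 0.27, and on that scale those of both lists were -0.27 and -0.38. Ppargc1a, a coactivator known for raising mitochondrial gene expression, rose from 62.7, 39.0 and 30.2 to 917, 598 and 406 (3.86 ± 0.36, adjusted p = 1.5e-05). Of 54 cell cycle and replication genes none passed (median -0.15), and of 11 CDK inhibitors and RB family genes, Cdkn2d, the p19 inhibitor, fell (-1.24). With trends removed its log2 fold change was -0.93, under the limit of 2-fold.

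Of 30 fetal-like and regenerative genes, 3 rose (10%) and 1 fell (3.33%), beside 1.99% and 0.763% of all genes (median 0.42). Il33, an alarmin, had 5.23, 3.44 and 6.28 against 57.1, 54.0 and 41.3, Ly6e 3842, 4520 and 6764 against 13780, 10500 and 16370, and Tinagl1, a matrix protein, 484, 586 and 661 against 1574, 1428 and 1034. S100a6, a calcium-binding protein, went the other way, from 1510, 1369 and 1532 to 64.4, 59.2 and 83.3 (-4.41 ± 0.27, adjusted p = 4.5e-07), and was called under each alternative. In SOX9-Halo_budding, S100a6 had 432, 457 and 867, and Ly6e had 3022, 5585 and 4759. Il33 and Tinagl1 did not pass the test between the SOX9 lines. In SOX9-mEGFP_spheroid, S100a6 was above SOX9-mEGFP_budding by a log2 fold change of 8.01 (adjusted p = 3.3e-09 in edgeR's test). Of 29 YAP and TEAD targets, Myof and Crim1 rose (1.68 and 1.35; median of the list 0.20), and with trends removed the adjusted p of Crim1 was 0.010, just above the threshold. Of 44 interferon-stimulated genes and 27 genes of antigen presentation none passed (medians 0.10 and -0.41). Of 30 mucosal defence genes, Reg3g, an antibacterial lectin, rose from 376, 255 and 136 to 4159, 1793 and 595 (3.09 ± 0.56, adjusted p = 0.0038). In the signalling lists, single members passed, namely Notch4 (1.98), the Eph receptor Epha4 (2.35), the immediate early gene Nr4a1 (1.52), the p53 target Plk2 (1.19), the integrin Itga6 (1.70) and the adhesion protein Nectin4 (2.70), which rose, and Smad6, an inhibitor of BMP signalling, which fell (-2.10). With trends removed Epha4 was lost (adjusted p = 0.015), and Itga6 was under the limit of 2-fold (0.95).

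**Figure D4:**
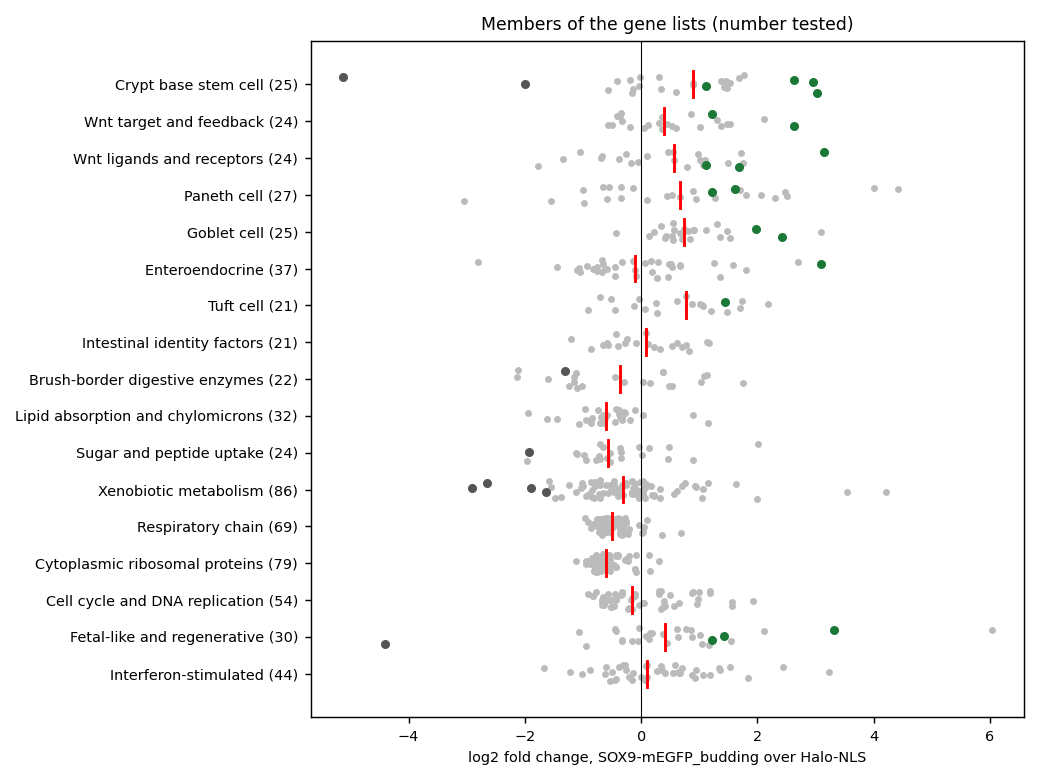
Log2 fold change of SOX9-mEGFP_budding over Halo-NLS (horizontal axis) for every tested member of 17 gene lists, with genes called higher in green, called lower in dark gray, others in light gray, and the median of the list as a red bar. The medians run from -0.61 for the ribosomal proteins to 0.89 for the crypt base stem cell genes.

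The genes that rose were not spread evenly over the chromosomes. Chromosome 15 held 54 of the 350 rises (15.4%) and 3 of the 134 falls, with 4.22% of the genes tested. On this chromosome the median log2 fold change was 0.37, and 72.6% of its 741 genes had a positive fold change, against 50.5% of the genes elsewhere. To look at single libraries, the median log2 difference from the Halo-NLS mean was taken over the 449 genes of chromosome 15 with a mean of at least 100, relative to the median of all such genes. It was between 0.33 and 0.39 in the 3 SOX9-mEGFP_budding libraries and between 0.33 and 0.42 in the 3 SOX9-mEGFP_spheroid libraries, which come from the same line, and between -0.16 and 0.06 in the 9 others. With the GC and length trends removed, the same values were 0.51 to 0.58, 0.55 to 0.58 and at most 0.19. On the 18 chromosomes other than 15 and 19, the SOX9-mEGFP_budding libraries then lay between -0.11 and 0.14. With 3 libraries against 3, an exact permutation test cannot go below p = 0.10. In 5 consecutive blocks of about 90 genes along the chromosome, the median log2 fold change was 1.12, 0.54, 0.16, 0.19 and 0.21, highest in the first block, and with trends removed it was 0.57, 0.53, 0.39, 0.31 and 0.32. Gene copy number was not measured. Gm10384, ENSMUSG00000128875, Ly6e and Nr4a1 lie on this chromosome, as do Ptger4, a prostaglandin E2 receptor (log2 fold change 2.65), and Grhl2, an epithelial transcription factor (1.33), both chosen after their values were seen. Without chromosome 15, 296 genes rose and 131 fell.

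Chromosome 19 lay on the other side, with 19 of the 134 falls (14.2%) in 3.74% of the genes tested and 11 rises. Its median level, computed in the same way with trends removed, was -0.37, -0.26 and -0.13 in the 3 SOX9-mEGFP_budding libraries, so that these differed among themselves. It was between -0.57 and -0.54 in SOX9-Halo_budding and between -0.03 and 0.03 in Halo-NLS, whose mean was the reference. In the spheroids it was between -0.62 and -0.54 for SOX9-mEGFP_spheroid and between 0.05 and 0.10 for SOX9-Halo_spheroid. Gstp2 and Fam111a, which fell, and Il33, Habp2 and Myof, which rose, lie on chromosome 19. Chromosome X had a median log2 fold change of 0.35, but with trends removed its median was 0.01.

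**Figure D5:**
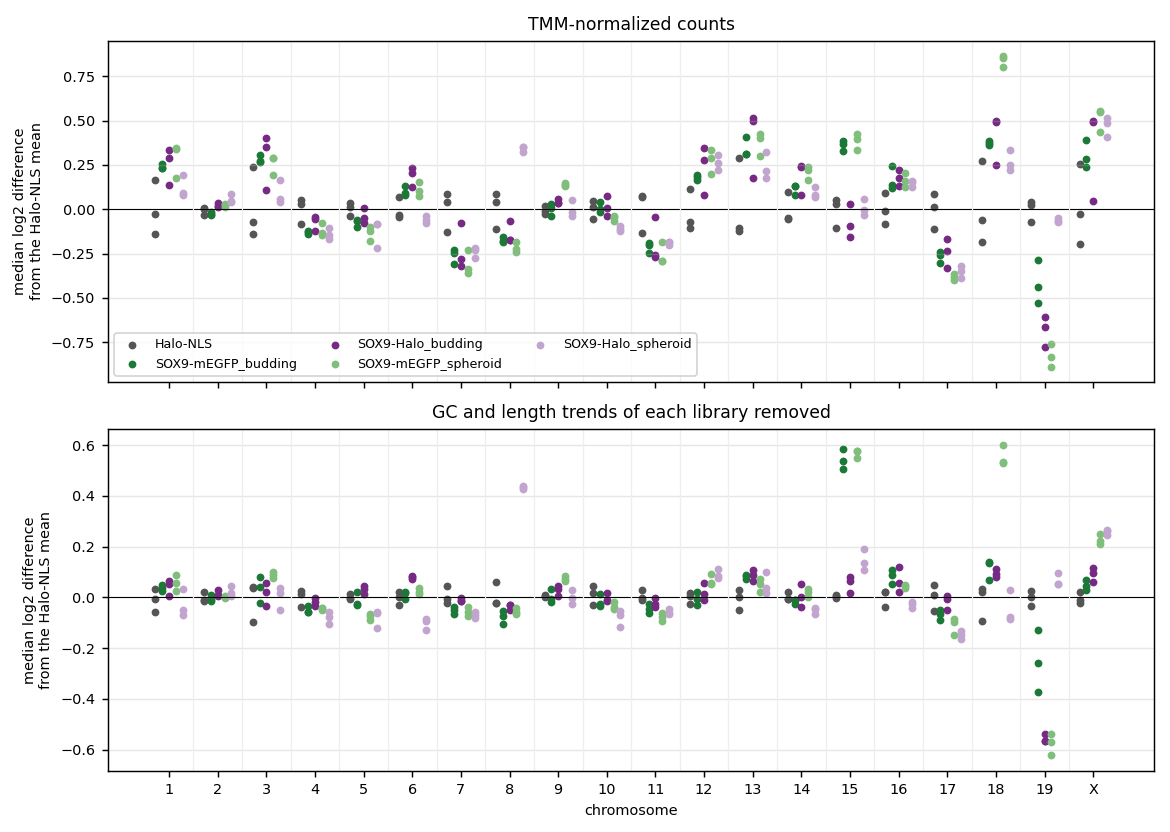
Median log2 difference from the Halo-NLS mean for the genes of each chromosome (horizontal axis), relative to all genes, in TMM-normalized counts (top) and with GC and length trends removed (bottom), with 1 point per library colored by condition. In the lower panel the 6 libraries of the SOX9-mEGFP line lie between 0.51 and 0.58 on chromosome 15, and the 9 other libraries at or below 0.19.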

How the data were processed

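Poly(A) RNA-seq was analysed from 15 libraries of mouse organoids, of which 3 SOX9-mEGFP_budding and 3 Halo-NLS libraries are compared here. The authors trimmed reads with cutadapt 4.5, kept unique STAR alignments to mm39 and counted them per gene with HTSeq 2.0.2 in union mode without strand, and they deposited raw counts per library. Tables with the authors' own fold changes, p-values and normalized values were not used. Rows that name no gene were left out (no feature 1.83% to 5.72%, ambiguous 10.2% to 13.6% of counts plus these rows in the 6 libraries).

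The members and gene lists were chosen with earlier results of these data known. One fit of edgeR 4.0.16 (TMM, filterByExpr, quasi-likelihood test) covered 15 libraries and 17560 of 78298 genes, with Benjamini-Hochberg adjustment over all genes tested, and SE is the size of the log2 fold change over the square root of F. The text names the 15 largest rises and falls with a mean of at least 100, and genes marked as chosen after their values were seen. From 47 gene lists it names called members (up to 6 per list, both directions together) and the 3 most abundant members. Under R 4.3.3, DESeq2 (version 1.42.0) served as an alternative test. Removal of GC and length trends by offsets and the lone control were chosen after seeing the data. The scripts were tested on simulated data. Counting intervals and limits cover counting error only. The p-values measure the spread between biological replicates of 1 line per condition. Gene coordinates and promoter starts came from GENCODE M39, which held 78168 of the 78298 identifiers. The values of 1 of the 15 largest rises are not reported here.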

Additional observations from a re-analysis of the deposited data

How the results depend on the processing

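The counts of DEGs moved with the setting, from 350 higher and 134 lower as reported (72.3% of calls higher). Values are given as higher, lower and, after a slash, differing between the budding lines (80 as reported). They were 620 and 108 (85.2% higher) with library sizes alone, 1730 and 261/280 without a low-count filter, 951 and 274/200 with DESeq2, 65 and 38/19 with only the libraries compared, 1253 and 332/172 at an adjusted p of at most 0.05, 342 and 281/129 with GC and length trends removed (54.9% higher), and 46 and 40 with Halo-NLS replicate 1 as the lone control, where a lone sample is assumed to vary like the others. Without one library each, 143 to 1839 were higher, 72 to 345 lower and 46 to 101 differed between the lines. The most (1839 and 345) were called without Halo-NLS replicate 1 and the fewest higher (143) without Halo-NLS replicate 2. The setting with only the libraries compared had fewer residual degrees of freedom and tested 15026 genes. The cause of these moves was not tested. RLE size factors and the mean over the compared libraries stayed within 1.5 times. The Sox9 log2 fold change lay between 3.91 and 4.56 and lost its call only with the lone control (4.22). None of the 69 named genes that were called changed sign under an alternative, but 44 of the 127 that were not called did, among them Smoc2, Lrig1, Kcnq1, Ccnd1, Hnf4a and Chgb. Medians of 15 of the 47 gene lists changed sign under at least 1 of 4 alternatives. With the lone control the median of Eph receptors and ephrins was 0.32, and with library sizes alone that of the cell cycle list was 0.12.

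Whether replicate numbers pair the samples was not settled. Deviations of same-numbered libraries correlated at -0.04, 0.27 and 0.24 over 11054 genes, and those of differently numbered libraries at -0.42 to 0.39. The share of counts on the 10 most abundant genes fell from replicate 1 to 3 in both conditions. It was 9.39%, 8.63% and 7.78% in Halo-NLS and 9.09%, 8.45% and 7.04% in SOX9-mEGFP_budding. With the replicate block, 455 genes were higher and 185 lower, and 97 differed between the lines. Of the DEGs, 30 of 350 rises and 31 of 134 falls were called under each of 15 alternatives. Called members of the gene lists were often lost. For single genes, 14 alternatives were computed, and Gkn3, Lgr4 and Fzd7 each passed the threshold on the adjusted p under 8, Reg3g under 9 and Pyy under 10. DEGs with few counts are limited by depth: 5 rises and 4 falls had no counts in one condition.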

Other observations

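The following DEGs were chosen after their values were seen. Fgfr4, a receptor for fibroblast growth factors, had normalized counts of 41.8, 125 and 201 in Halo-NLS and 1606, 1761 and 1502 in SOX9-mEGFP_budding (log2 fold change 3.72 ± 0.42), and 1037, 1645 and 1445 in SOX9-Halo_budding. Ceacam1, an adhesion protein of epithelial cells, had 648, 640 and 362 against 4924, 3791 and 4392 (2.99 ± 0.28). Vav3, a guanine nucleotide exchange factor, had 62.7, 21.8 and 26.4 against 651, 600 and 510 (3.99 ± 0.37). Pla2g4a, the cytosolic phospholipase that releases arachidonic acid, rose from 28.8, 11.5 and 40.2 to 176, 319 and 707. Neighbouring genes rose as pairs at some sites. Sdr16c5 and Sdr16c6, short-chain dehydrogenases 36266 bases apart on chromosome 4, rose together, Sdr16c6 by a log2 fold change of 6.66, and Tfpi2 and Gng11, 14940 bases apart on chromosome 6, had 3.76 and 3.78. Sdc2, a syndecan, was near the limit of detection in Halo-NLS (0, 1.15 and 6.28), reached 25.5, 26.0 and 21.0 in SOX9-mEGFP_budding, and was higher again in SOX9-Halo_budding with 221, 195 and 253. Among the falls were Ltbp3, a protein that holds latent TGF-beta in the matrix (-2.20), and Nrros, which anchors latent TGF-beta on cells (-2.86).

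Other gene lists held few or no DEGs. Of all genes tested, 1.99% rose and 0.763% fell, so that 0 or 1 called in a list of this size can be close to these shares. Genes of cholesterol synthesis, EGF family ligands and receptors, unfolded protein response, NRF2 targets, heat shock proteins, keratins and HOX genes had 0 called of 27, 10, 35, 24, 18, 27 and 9 tested, at medians of 0.06, 0.15, -0.19, -0.17, 0.40, 0.38 and 0. In the fatty acid oxidation list, Ppargc1a alone rose of 33 (median -0.27). The lists of MAPK feedback genes (17 tested), Eph receptors and ephrins (16), immediate early genes (25), integrins, laminins and collagens (33), junctions (29) and gastric genes (11) held 1 rise each, with medians between -0.30 and 0.16. With library sizes alone, where the median of all genes was 0.27, the medians of the unfolded protein response and NRF2 lists were 0.03 and 0.07. The Paneth cell alpha-defensins Defa21 and Defa22, which have close relatives in the genome, did not pass (log2 fold changes 4.00 and 4.42, adjusted p 0.027 in edgeR's test for both), with values in SOX9-mEGFP_budding replicate 3 far above the other libraries. Mitochondrially encoded transcripts made up 1.97% to 4.44% of counts in Halo-NLS and 3.58% to 3.91% in SOX9-mEGFP_budding.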
